A study of Mus musculus with 24 samples.

Results

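Acetophenone, an aromatic ketone with a sweet smell, was compared with no odor in the olfactory epithelium of the mouse, across all genes. The comparison holds 6 of the 24 libraries of the study, namely 3 from mice given acetophenone and 3 from the no-odor controls of the same batch, chosen by their labels. All mice were wild-type C57BL/6J males of 8 weeks, kept singly in an odor-free chamber for 4 h before exposure. The acetophenone mice then spent 90 min with 10 µL of undiluted odorant on filter paper, and the control mice spent 90 min with empty filter paper. The same batch, called AD in the labels, also holds 3 decanal libraries (a straight-chain aldehyde) and 3 libraries of acetophenone and decanal mixed 1:1 at the same volume. The groups have 3 biological replicates each, and the labels tie no mouse of one group to a mouse of another. RNA came from a cleared detergent lysate of the whole dissected tissue, made right after exposure, and was read as stranded poly(A) libraries.

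An olfactory sensory neuron expresses 1 odorant receptor gene, and its cilia turn odorant binding into a rise of cyclic AMP that opens a cation channel. Sustained firing is known to switch on early response genes and, over longer times, to raise or lower transcripts that mark how active the neuron has been. Odorants also reach sustentacular cells, the supporting cells rich in detoxifying enzymes, and the glands below them.

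Each library held between 24247527 and 24556057 counts with acetophenone and between 23030317 and 24802492 counts with no odor, so depth was nearly equal. Levels below are CPM, counts scaled to the size of the library and not divided by gene length, and differences are log2 fold changes of acetophenone over no odor. Markers of the labelled tissue were present in all 6 libraries, with the mature neuron gene Omp between 9515 and 9797 CPM with acetophenone and between 9115 and 9805 CPM with no odor. Acetophenone 1 stood apart from its group. On the second principal component of the 12 libraries, which held 15.4% of the variance, it lay at 35.81, against -25.06 for acetophenone 2 and -22.31 for acetophenone 3. The no-odor libraries 1, 2 and 3 lay at 1.947, 38.36 and -13.46. The first component held 26.1% of the variance. On it acetophenone 1, 2 and 3 lay at -23.7, -40.72 and -35.14, and no-odor libraries 1, 2 and 3 at -18.24, -19.38 and -20.31. Decanal and mixture libraries lay between 22.86 and 31.59 on the first component. In bulk tissue, fewer cells of a type and less RNA per cell cannot be told apart.

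One gene passed the test against no odor, the cytokine gene Il33. Il33 (ENSMUSG00000024810) encodes an alarmin held in the nuclei of barrier epithelia and released on damage. It was measured at 662, 713 and 654 CPM in acetophenone libraries 1 to 3, against 494, 509 and 484 CPM in no-odor libraries 1 to 3. The lowest acetophenone library lay above the highest no-odor library. The rise was 1.37-fold, a log2 fold change of 0.45 with a 95% interval of 0.34 to 0.56 (SE 0.05, adjusted p = 0.00653 in edgeR's quasi-likelihood test). Without no-odor library 1 the adjusted p was 0.0949 and without no-odor library 3 it was 0.123, with log2 fold changes of 0.45 and 0.44.

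Il33 was thus 1 called gene of 19525 tested, or 0.00512% of them, and no gene was called lower. At an unadjusted p under 0.05 stood 1287 genes (6.59%), of which 619 lay above no odor (3.17%) and 668 below it (3.42%). The groups did not overlap for 1602 genes higher with acetophenone (8.20%) and 1238 genes lower (6.34%). The median log2 fold change over all genes tested was 0.01. DESeq2 called 11 genes higher and 19 lower. Leaving out acetophenone 1 gave 6 genes higher and 33 lower. Leaving out acetophenone 1 together with no-odor library 2 gave 4 higher and 11 lower. Without no-odor library 1, or without no-odor library 3, no gene was called. The number of genes called thus moved with the libraries kept and with the test used.

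Il33 in acetophenone libraries was also above its level with the other odorants of the batch. Decanal libraries held 415, 420.1 and 417 CPM and mixture libraries 443, 475 and 487 CPM. The log2 fold change of acetophenone was 0.70 over decanal (SE 0.05, adjusted p = 1.05e-06) and 0.53 over the mixture (SE 0.05, adjusted p = 7.26e-06). These tests share the acetophenone libraries with the test against no odor. The receptor and partners of the cytokine showed no call. Il1rl1, its receptor, was at 0.203, 0.209 and 0.508 CPM with acetophenone and at 0.158, 0.172 and 0.167 CPM with no odor. Il1rap, the co-receptor, was at 4.42, 6.61 and 5.17 CPM with acetophenone and at 6.26, 4.04 and 4.75 CPM with no odor. The chromatin protein Hmgb1, another alarmin, had a log2 fold change of 0.14 (adjusted p = 0.558). Among 16 tested genes of alarmins and the Il33 axis, Il33 was the 1 called, and their median was 0.09. It lay between -0.02 and 0.02 with any 1 of the 6 libraries left out. Those fits filtered genes anew and tested 19883 to 19916 of them, so the members behind these medians may differ.

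**Figure D1:**
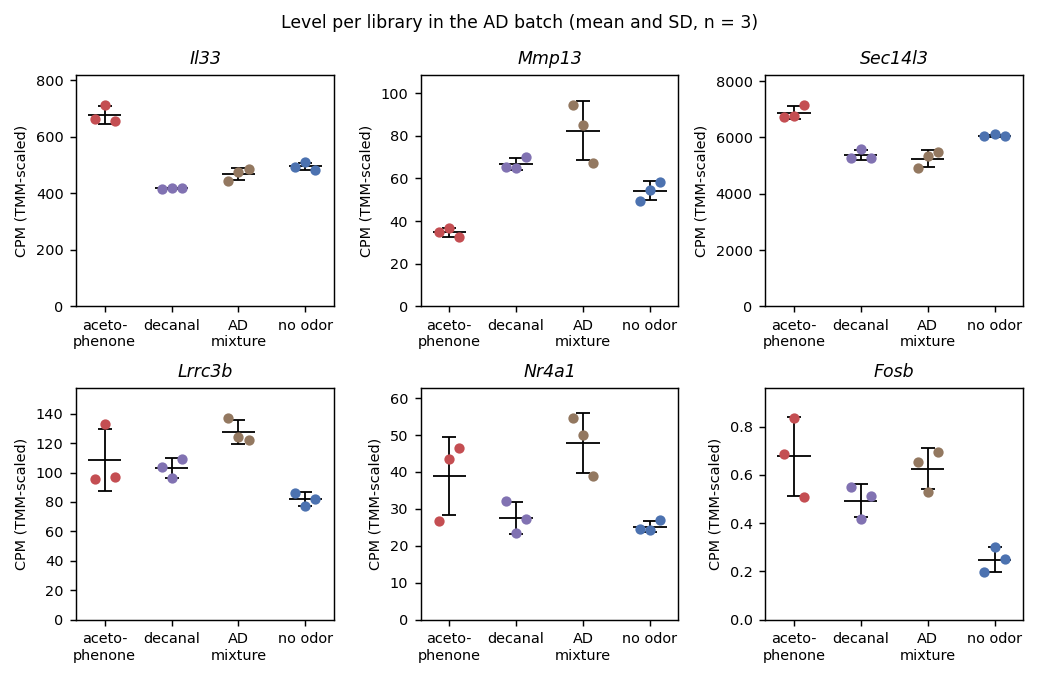
Level in CPM (vertical axes, from 0) of 6 genes in the acetophenone, decanal, mixture and no-odor libraries of the AD batch; dots are libraries, long bars the mean and whiskers the SD of 3. Il33 lies between 654 and 713 CPM with acetophenone and between 484 and 509 CPM with no odor, while Mmp13 lies between 32.4 and 36.9 CPM with acetophenone and between 49.6 and 58.5 CPM with no odor.

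Mmp13, the gene of a collagenase made by bone and stromal cells, came next by p. Its levels were 34.8, 36.9 and 32.4 CPM with acetophenone, against 49.6, 54.4 and 58.5 CPM with no odor. The groups were separate, yet the log2 fold change of -0.64 (95% interval -0.86 to -0.43) did not pass after adjustment (adjusted p = 0.129). It was called by DESeq2 (adjusted p = 9.8e-07), in a fit of the 6 libraries alone (adjusted p = 0.0298) and without acetophenone 1 (adjusted p = 0.0397). Mmp13 was called lower with acetophenone than with decanal (log2 fold change -0.94, adjusted p = 1.36e-05) and lower than with the mixture (-1.24, adjusted p = 1.66e-06).

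The remaining genes with the smallest p and separate groups had an adjusted p of 0.412 or, for Pnliprp1, 0.367. Of the genes higher with acetophenone, Sec14l3, a lipid-transfer protein of sustentacular cells, was at 6721, 6764 and 7160.5 CPM, against 6034, 6106 and 6060.1 CPM with no odor (log2 fold change 0.18, 95% interval 0.10 to 0.26). Ermn, a cytoskeletal protein on the sustentacular list, was at 198, 199 and 192 CPM with acetophenone, against 170.5, 172 and 170.0 CPM with no odor (0.20). For both genes the 3 acetophenone libraries lay close together and above every no-odor library. The endocytic adaptor gene Dab2 stood at 0.19, the carboxypeptidase gene Cpm at 0.25, the cysteine dioxygenase gene Cdo1 at 0.27, the growth factor gene Fgf20 at 0.40 and the complement gene C9 at 0.75. Ptp4a1, a phosphatase gene with 2 IDs of that symbol in the table, stood at 0.22 for the more abundant ID, and Eif2s2, a subunit of the translation factor eIF2, at 0.20. Pnliprp1, a lipase gene, was at 0.891, 9.66 and 15.1 CPM with acetophenone and at 0.315, 0.558 and 0.375 CPM with no odor, so its log2 fold change of 4.35 (95% interval 2.68 to 6.02) rests mainly on acetophenone 2 and 3.

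Genes at the other end were lower with acetophenone and none was called. Pcdh9, a protocadherin, was at 9.48, 8.82 and 10.5 CPM with acetophenone, against 15.3, 13.3 and 13.5 CPM with no odor (log2 fold change -0.54). Spp1, the secreted matrix protein osteopontin, was at 271, 325 and 297 CPM with acetophenone, against 369, 423 and 399 CPM with no odor (-0.42). The serine protease gene Htra1 stood at -0.49, the matrix gene Vwa1 at -0.48, the RNA-binding protein gene Csdc2 at -0.44, Tspan15, a tetraspanin, at -0.36 and Kalrn, a guanine nucleotide exchange factor, at -0.34. Larger log2 fold changes came from genes of low level. Pcp4, a calmodulin-binding protein of neurons, was at 0.648, 0.46 and 0.381 CPM with acetophenone and at 2.88, 1.29 and 3.96 CPM with no odor (-2.43). Camk2b, a calmodulin-dependent kinase subunit, stood at -1.20.

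Genes that follow neuronal activity were taken from a list of 8 transcripts reported as higher in more active olfactory sensory neurons. All 8 had a log2 fold change above 0, with a median of 0.26 and a range of 0.02 to 0.49, and none was called. Of the 8, 3 stood at an unadjusted p under 0.05, and 1, Lrrc3b, had groups that did not overlap. Over all genes 3.17% stood above no odor at that p and 8.20% had separate groups that were higher. Among 8262 other protein-coding genes of at least 20 CPM these were 404 and 1066. Lrrc3b, a leucine-rich repeat membrane protein, was at 95.9, 133 and 97.0 CPM with acetophenone, against 86.3, 77.2 and 82.3 CPM with no odor (log2 fold change 0.41, 95% interval 0.19 to 0.62, adjusted p = 0.412). DESeq2 called it (adjusted p = 0.02), and without acetophenone 2 it stood at 0.24 (adjusted p = 0.932). The potassium channel subunit gene Kcng1 was at 23.7, 46.4 and 29.8 CPM with acetophenone, against 23.6, 24.9 and 22.5 CPM with no odor (0.49, adjusted p = 0.672).

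Kirrel2, an adhesion molecule of olfactory axons, was at 268, 551 and 354 CPM with acetophenone and at 313, 302 and 332 CPM with no odor (0.31, adjusted p = 0.792). Acetophenone 1 was the lowest of the 6 libraries for Kirrel2 and acetophenone 2 the highest. The calcium-binding protein gene S100a5, the best known of the list, was at 636, 719.8 and 566 CPM with acetophenone and at 681, 599 and 618 CPM with no odor (0.02). Pcp4l1, a small calmodulin-binding protein, stood at 0.23. Without acetophenone 2 the median of the list was 0.06 and Kirrel2 stood at -0.02, and without acetophenone 1 the median was 0.36. The 4 genes listed as higher in inactive neurons had a median of -0.01.

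The sequences below are the promoters of Il33, which has 2 listed starts, of Mmp13, and of the early genes Nr4a1 and Fosb, printed because these 4 genes are the called gene, the next by p, and the 2 early genes at an unadjusted p under 0.05. Each runs from 250 bases before to 50 bases after the start, on the strand of the gene, from RefSeq on GRCm38.p6, an earlier build than that of the counts. Capitals mark the cyclic AMP response half-site CGTCA or its reverse complement TGACG, and the AP-1 site TGACTCA or its reverse complement TGAGTCA, both searched on both strands; the 2 motifs share no stretch in these windows.
Il33 start 1, chr19:29924863-29925162, plus strand: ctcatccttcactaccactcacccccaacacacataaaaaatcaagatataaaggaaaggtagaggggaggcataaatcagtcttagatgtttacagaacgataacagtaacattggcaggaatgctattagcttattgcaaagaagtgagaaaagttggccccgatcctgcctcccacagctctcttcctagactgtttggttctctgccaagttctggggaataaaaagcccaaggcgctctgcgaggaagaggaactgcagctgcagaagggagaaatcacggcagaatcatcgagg
Il33 start 2, chr19:29945540-29945839, plus strand: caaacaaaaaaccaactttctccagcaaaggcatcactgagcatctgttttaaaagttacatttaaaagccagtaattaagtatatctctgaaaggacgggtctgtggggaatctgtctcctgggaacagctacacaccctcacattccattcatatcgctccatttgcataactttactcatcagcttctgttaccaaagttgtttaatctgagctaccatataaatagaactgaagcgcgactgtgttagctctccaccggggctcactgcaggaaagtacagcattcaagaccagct
Mmp13, chr9:7272264-7272563, plus strand: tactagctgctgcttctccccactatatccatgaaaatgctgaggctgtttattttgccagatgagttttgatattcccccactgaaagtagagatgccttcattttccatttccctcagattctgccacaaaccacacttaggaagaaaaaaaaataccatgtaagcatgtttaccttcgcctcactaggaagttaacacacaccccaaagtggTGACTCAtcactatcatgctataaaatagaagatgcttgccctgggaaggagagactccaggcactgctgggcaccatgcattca
Nr4a1, chr15:101266596-101266895, plus strand: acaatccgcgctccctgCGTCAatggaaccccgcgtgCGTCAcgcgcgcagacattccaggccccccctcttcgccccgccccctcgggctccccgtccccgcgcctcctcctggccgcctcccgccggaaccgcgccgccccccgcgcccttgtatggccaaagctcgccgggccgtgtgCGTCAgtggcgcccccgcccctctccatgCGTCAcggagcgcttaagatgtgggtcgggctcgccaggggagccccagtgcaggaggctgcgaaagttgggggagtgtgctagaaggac
Fosb, chr7:19309996-19310295, minus strand: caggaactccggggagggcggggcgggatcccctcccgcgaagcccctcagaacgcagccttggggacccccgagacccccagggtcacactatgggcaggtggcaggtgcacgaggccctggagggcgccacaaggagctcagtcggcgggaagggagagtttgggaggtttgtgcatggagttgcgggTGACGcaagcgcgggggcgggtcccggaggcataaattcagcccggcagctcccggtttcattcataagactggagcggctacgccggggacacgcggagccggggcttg
Nr4a1 held 4 half-sites and Fosb 1, and Mmp13 held 1 AP-1 site. Neither window of Il33 held either motif. Of 32851 promoters of 300 bases, 20.8% held a half-site, 0.231% held 4 or more, and 5.2% held an AP-1 site. A match describes letters, and no binding was measured here.

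Early response genes, which neurons switch on within minutes of firing, were not called with acetophenone. Of 37 tested, 2 stood above no odor at an unadjusted p under 0.05, beside 3.17% of all genes, and none below it. The median of the 37 was 0.03, or 0.08 without acetophenone 1. Fosb, a subunit of the AP-1 factor, was at 0.689, 0.836 and 0.508 CPM with acetophenone, against 0.197, 0.30 and 0.25 CPM with no odor (log2 fold change 1.43, 95% interval 0.61 to 2.26, adjusted p = 0.451). The groups did not overlap, at levels under 1 CPM. Nr4a1, an orphan nuclear receptor, was at 26.7, 43.5 and 46.5 CPM with acetophenone, against 24.5, 24.2 and 27.0 CPM with no odor (0.62, 95% interval 0.25 to 0.99, adjusted p = 0.464). Acetophenone 2 and 3 were above every no-odor library and acetophenone 1 was among them, and without acetophenone 1 Nr4a1 was called at 0.83 (adjusted p = 0.0169).

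Most other early genes overlapped between the groups. Fos was at 6.64, 8.24 and 10.0 CPM with acetophenone and at 7.52, 11.5 and 13.1 CPM with no odor (-0.37, 95% interval -0.98 to 0.25). The zinc finger factor gene Egr1 was at 25.8, 34.7 and 34.7 CPM with acetophenone and at 20.1, 29.0 and 28.6 CPM with no odor (0.29, 95% interval -0.10 to 0.68). Arc, a synaptic capsid-like protein, stood at -0.17, and Npas4, a neuronal activity factor, at 0.74 with an interval of -0.79 to 2.26. Npas4 reached 0.795 CPM in acetophenone 2 and at most 0.30 CPM in any no-odor library. Against decanal, 5 of 37 early genes were called higher and 1 lower with acetophenone, beside 14.4% and 12.6% of all genes. Egr1 was among the higher ones, at a log2 fold change of 0.87 over decanal (adjusted p = 0.00324).

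**Figure D2:**
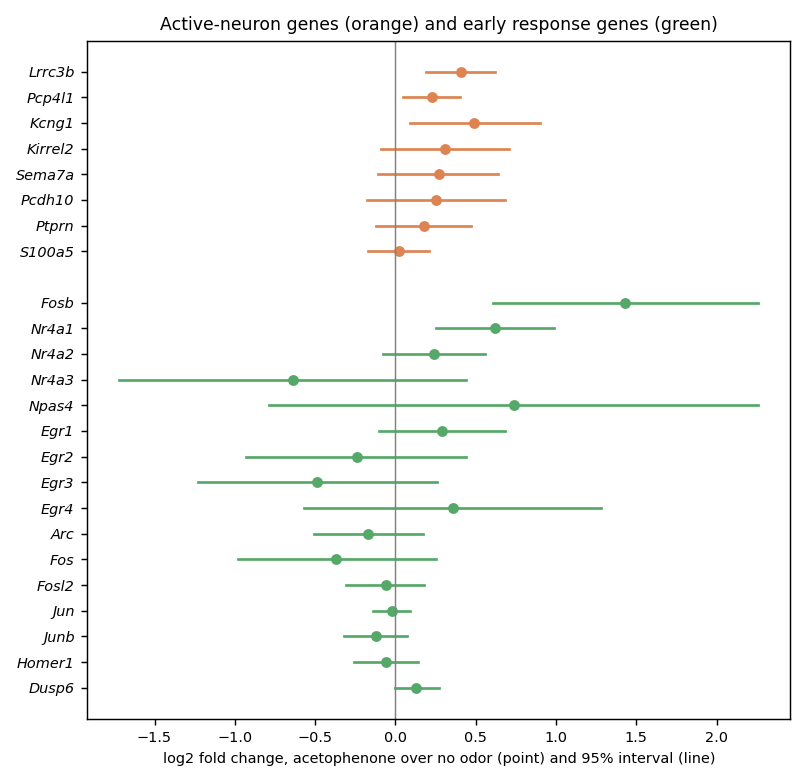
Log2 fold change of acetophenone over no odor (horizontal axis; points, with 95% intervals as lines) for the 8 active-neuron genes (orange) and 16 of the early response genes (green). The intervals of Lrrc3b, Pcp4l1, Kcng1, Fosb and Nr4a1 lie above 0 before any adjustment, and those of S100a5, Fos and Arc span it.

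Odorant receptors here are the 1093 protein-coding genes with a symbol of Olfr and a number, of which 927 were tested. None of the 927 was called in edgeR or in DESeq2. Olfr1025-ps1, outside this set, was called lower by DESeq2 (log2 fold change -1.33, adjusted p = 0.0157). With no filter on low counts edgeR called 5 receptors higher and 23 lower, among 88 genes higher and 212 lower of 33134 tested. At an unadjusted p under 0.05 stood 33 of the 927 above no odor and 95 below it, beside 3.17% and 3.42% of all genes. The groups did not overlap for 46 higher, beside 8.20% of all genes, and 139 lower, beside 6.34%. The median log2 fold change of the 927 was -0.12, or -0.07 without no-odor library 3. Receptors together took 0.50% ± 0.011 of all counts with acetophenone and 0.515% ± 0.0169 with no odor (SD, n = 3 each; two-sided exact permutation p = 0.2, smallest possible 0.1). The summed level was thus nearly equal while more single receptors lay below no odor than above it. Reads of receptors with near-identical copies may have been shared between them.

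The difference between receptors followed their level. The 38 receptors with a mean of at least 20 CPM over the 12 libraries had a median of 0.14, with 8 above no odor at an unadjusted p under 0.05 and none below. The 215 receptors from 5 to 20 CPM had a median of 0.02, with 12 above and 11 below. The 483 receptors from 1 to 5 CPM had a median of -0.22, with 9 above and 68 below. The 191 receptors under 1 CPM had a median of -0.22, with 4 above and 16 below. Other protein-coding genes had medians of 0.02, -0.01, -0.07 and -0.18 in the same classes, high to low, and 119 of 2259 from 1 to 5 CPM stood below no odor at an unadjusted p under 0.05. Noncoding and other genes had medians of 0.05, 0.04, 0.00 and -0.06. The difference between receptors and these genes was not tested. Fewer receptors reached 1 CPM with acetophenone, at 709, 646 and 684 per library, against 728, 739 and 739 with no odor. The part of marker levels and of dissection in this pattern was not tested.

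Among receptors above no odor, Olfr1384 was at 26.9, 29.6 and 30.8 CPM with acetophenone, against 21.4, 21.3 and 22.1 CPM with no odor (log2 fold change 0.43, adjusted p = 0.451). Olfr1263 was at 29.3, 36.6 and 30.8 CPM with acetophenone, against 26.0, 21.6 and 24.3 CPM with no odor (0.43, adjusted p = 0.453). Both were separate between the groups, and both were called higher than with decanal, at 0.66 (adjusted p = 0.000669) and 0.63 (adjusted p = 0.00111). Olfr8 stood at 0.67, Olfr1347 at 0.47 and Olfr1200 at 0.49 over no odor, with adjusted p of 0.5 to 0.526. Among receptors below no odor, Olfr819 was at 0.122, 0.0836 and 0.127 CPM with acetophenone, against 0.591, 0.601 and 0.584 CPM with no odor (-2.36, adjusted p = 0.412). Olfr139 was at 0.932, 0.795 and 0.805 CPM with acetophenone, against 1.46, 1.97 and 2.08 CPM with no odor (-1.12). Olfr3 stood at -0.95 and Olfr875 at -1.96. Olfr904 was listed at 0 in acetophenone 2 and 3 and at 0.122 CPM in acetophenone 1, against 0.433, 0.472 and 0.667 CPM with no odor.

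Receptors that published work had linked to acetophenone were listed from memory, 8 in all, of which 7 were tested. All 7 stood below no odor, with a median of -0.64 beside -0.12 for all receptors tested; 3 had an unadjusted p under 0.05 and 5 had groups that did not overlap, beside 6.34% of all genes, 139 of the 927 receptors and 101 of the 483 receptors from 1 to 5 CPM. Olfr744 was at 0.324, 0.376 and 0.508 CPM with acetophenone, against 1.62, 1.03 and 0.917 CPM with no odor (log2 fold change -1.55, 95% interval -2.47 to -0.63, adjusted p = 0.464). Olfr145 was at 3.81, 2.26 and 4.02 CPM with acetophenone, against 5.36, 4.68 and 5.88 CPM with no odor (-0.66, adjusted p = 0.571). Olfr1377 was at 1.46, 1.05 and 1.23 CPM with acetophenone, against 2.25, 2.06 and 1.88 CPM with no odor (-0.72, adjusted p = 0.618). In each of these 3 receptors every acetophenone library lay below every no-odor library.

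Olfr160, known as M72, was at 1.70, 1.34 and 1.65 CPM with acetophenone, against 1.89, 2.15 and 2.63 CPM with no odor (-0.50, 95% interval -1.07 to 0.06, adjusted p = 0.768). Its close relative Olfr151, known as M71, was listed at 0 in all 6 libraries; whether its reads were counted under another ID was not tested, so the 0 says nothing of its level. Olfr983 stood at -0.34, Olfr923 at -0.64 and Olfr1477 at -0.01. Against decanal, 4 of the 7 were called lower with acetophenone, beside 93 of the 927 receptors and 12.6% of all genes. None was called higher, beside 56 of the receptors and 14.4% of all genes. Against the mixture, which also holds acetophenone, 1 was called lower, beside 33 of the receptors and 11.6% of all genes. The median without acetophenone 2 was -0.43 and with acetophenone 1 and no-odor library 2 both left out it was -0.84. Trace amine-associated receptors, the other receptor family of the epithelium, had a median of -0.38 over 8 tested members. Taar7f, from a group of near-identical genes, was at 1.58, 1.71 and 1.36 CPM with acetophenone and at 2.56, 1.93 and 2.50 CPM with no odor.

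Sustentacular markers lay slightly above no odor. Of 17 tested, 7 were above it at an unadjusted p under 0.05, none below, and 8 had groups that did not overlap, all higher with acetophenone; the median was 0.06. Over all genes 3.17% were above no odor at that p and 8.20% had separate groups that were higher, and among other protein-coding genes of at least 20 CPM 1066 of 8262 had such groups. Beside Sec14l3 and Ermn, the carbonyl reductase gene Cbr2 was at 4016, 4004 and 3965 CPM with acetophenone, against 3664, 3674 and 3577 CPM with no odor (log2 fold change 0.14, adjusted p = 0.414). Aldh1a7, an aldehyde dehydrogenase, was at 124, 117 and 120.4 CPM with acetophenone, against 94.9, 99.3 and 102 CPM with no odor (0.29, adjusted p = 0.424). Cyp2g1, a cytochrome P450 of the olfactory mucosa, stood at 0.15. Other abundant enzymes of these cells overlapped between the groups, with Cyp2a5 at -0.01, Cyp1a2 at -0.06 and Ugt2a1 at 0.02. Cyp2e1, which oxidises small ketones and alcohols, was at 97.8, 106 and 130.2 CPM with acetophenone, against 91.2, 85.8 and 73.9 CPM with no odor (0.41, adjusted p = 0.424).

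Enzymes that handle odorants as foreign compounds were mixed. Over all genes 3.17% stood above no odor at an unadjusted p under 0.05 and 3.42% below it. Of 49 xenobiotic enzymes 7 stood above no odor and 1 below it at that p, with a median of -0.02. Of 33 enzymes of carbonyl and alcohol metabolism 3 stood above and none below, with a median of 0.06. NRF2 targets, genes of the oxidant response, had 2 above and 2 below among 19. Txnrd1, a thioredoxin reductase, stood at 0.14 and Me1, malic enzyme, at -0.17. In lipid synthesis 4 of 22 stood below no odor and none above, with a median of -0.10, or -0.04 without acetophenone 2 and -0.16 without acetophenone 3. Scd1 and Scd2, desaturases of fatty acids, were at -0.29 and -0.26.

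Heat shock proteins, chaperones that hold stressed proteins, had 7 of 17 members above no odor at an unadjusted p under 0.05 and none below. Their median was 0.15. Over all genes 3.17% stood above no odor at that p, as did 404 of 8262 other protein-coding genes of at least 20 CPM. Dnajb1 was at 84.9, 106 and 87.3 CPM with acetophenone, against 74.7, 80.3 and 78.8 CPM with no odor (log2 fold change 0.25, adjusted p = 0.479). Hspb8 stood at 0.18 and Dnaja1 at 0.19. Hspa1b, whose reads may be shared with its near-copy Hspa1a, was at 20.2, 86.3 and 35.3 CPM with acetophenone and at 28.4, 28.0 and 26.0 CPM with no odor. Acetophenone 2 was the highest library for it, and without acetophenone 2 the median of the list was 0.05. Asns, asparagine synthetase of the amino acid and unfolded protein responses, stood at 0.26.

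Transcripts encoded in mitochondrial DNA took 0.297% ± 0.0339 of counts with acetophenone and 0.260% ± 0.0237 with no odor (SD, n = 3 each; two-sided exact permutation p = 0.3). Of 15 tested, 8 stood above no odor at an unadjusted p under 0.05 and none below, with a median of 0.24, or 0.15 without acetophenone 2. Over all genes 3.17% stood above no odor at that p and 3.42% below it. mt-Co1, a subunit of cytochrome oxidase, was at 610.1, 681 and 579 CPM with acetophenone, against 497, 464 and 567 CPM with no odor (0.29, adjusted p = 0.509). The 77 cytosolic ribosomal proteins had a median of 0.06, with 7 above no odor and none below. Their share of counts was 0.661% ± 0.0243 with acetophenone and 0.655% ± 0.0116 with no odor (exact permutation p = 0.9).

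Neuronal identity genes lay near no odor. Of 16 components of odor transduction 1, the G protein subunit gene Gng13, stood above no odor at an unadjusted p under 0.05 (0.20, adjusted p = 0.741). The median of the 16 was 0.03. Separate groups were seen for 3 of the 16, all higher with acetophenone. Of all genes 8.20% had such groups, as had 1066 of 8262 other protein-coding genes of at least 20 CPM. Immature neuron markers had none at that level among 12, with Gap43, a growth cone protein, at 336, 300.2 and 285 CPM with acetophenone and at 295, 306 and 257 CPM with no odor. Globose basal cells, the dividing precursors, had 3 of 14 above no odor at that level, beside 3.17% of all genes, and a median of 0.13. Macrophage markers and NF-kB targets had no member at an unadjusted p under 0.05 in either direction, among 13 and 15 tested.

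**Figure D3:**
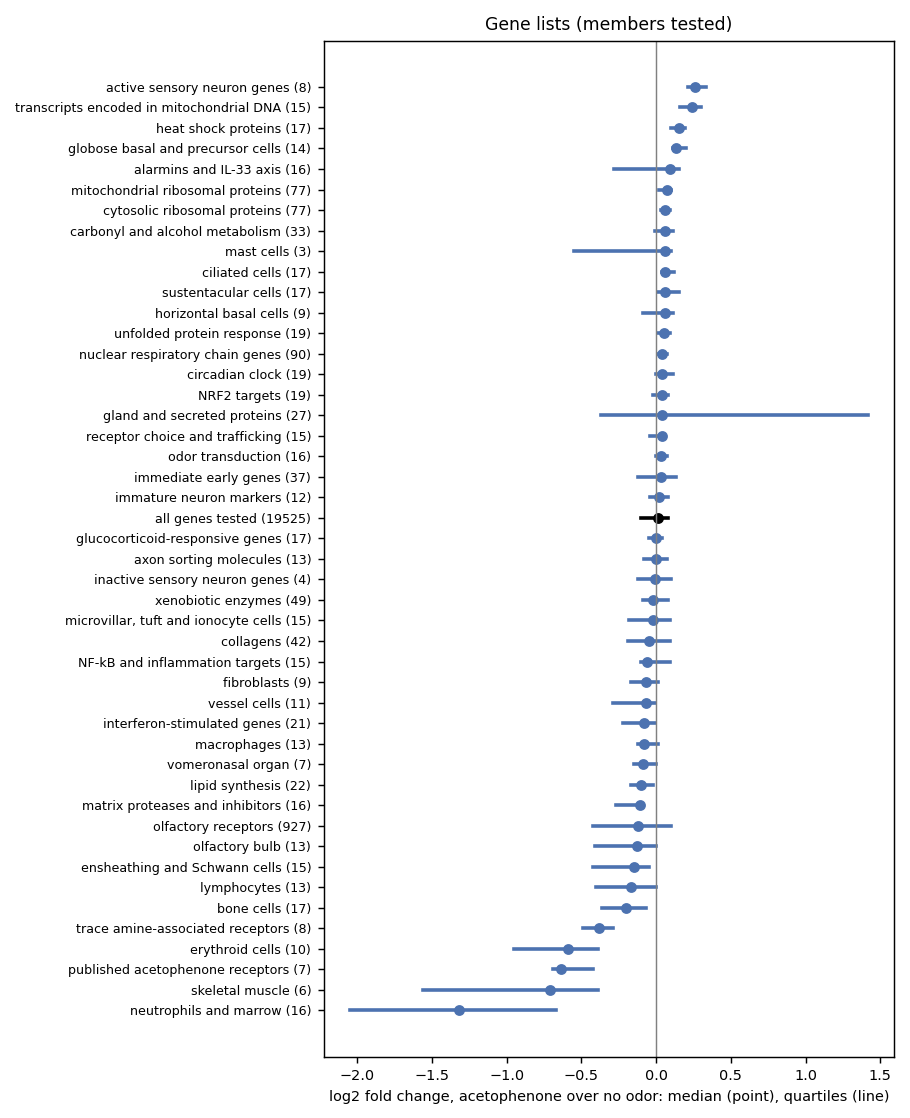
Median (points) and quartiles (lines) of the log2 fold change of acetophenone over no odor (horizontal axis) for each gene list, with the number of members tested in brackets; the black point is all 19525 genes tested. The active-neuron list has the highest median, 0.26, and neutrophils and marrow the lowest, -1.32.

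No gene of blood or marrow was called, and acetophenone 1 differed from acetophenone 2 and 3 in several of them. The neutrophil and marrow list had 13 of 16 members below no odor at an unadjusted p under 0.05 and none above, with a median of -1.32. Over all genes 3.42% stood below no odor at that p. S100a9, a granulocyte calcium-binding protein, was at 7.17, 3.35 and 2.67 CPM with acetophenone, against 7.21, 11.8 and 10.8 CPM with no odor (log2 fold change -1.16, adjusted p = 0.412). Ngp, a neutrophil granule protein, was at 2.43, 0.502 and 0.466 CPM with acetophenone, against 3.35, 6.53 and 4.42 CPM with no odor (-2.04, adjusted p = 0.412). The alpha-globin gene Hba-a1, which has a near-identical copy, was at 129, 45.4 and 62.1 CPM with acetophenone and at 122, 142 and 114 CPM with no odor (-0.68). Acetophenone 1 lay among the no-odor libraries for Hba-a1 and just below the lowest of them for S100a9. Without acetophenone 1 the medians were -1.94 for marrow and -1.28 for erythroid genes, against -1.32 and -0.59 with it; without acetophenone 2 the erythroid median was -0.36. Without acetophenone 1, S100a9 (-1.72, adjusted p = 0.00159), Ngp (-3.28, adjusted p = 0.0104) and Hba-a1 (-1.23, adjusted p = 0.00159) were called.

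Glial genes of the olfactory nerve were not called either. Fabp7, a fatty acid-binding protein of ensheathing glia, was at 121, 68.9 and 76.7 CPM with acetophenone, against 128, 140.3 and 136 CPM with no odor (log2 fold change -0.60, adjusted p = 0.414; -0.89 and adjusted p = 0.000418 without acetophenone 1). The defining glial factor gene Sox10 overlapped, at 54.4, 51.9 and 54.4 CPM with acetophenone and at 52.4, 58.9 and 57 CPM with no odor. Of the 15 ensheathing and Schwann cell genes, 4 stood below no odor at an unadjusted p under 0.05, beside 3.42% of all genes. The median of the 15 was -0.15, or -0.09 without no-odor library 2. Gad1, a marker of olfactory bulb interneurons, was at 6.48, 0.0418 and 0.0847 CPM with acetophenone and at 14.8, 4.38 and 12.9 CPM with no odor. Acetophenone 2 and 3 were thus nearly free of Gad1 and acetophenone 1 was not. Of 13 olfactory bulb genes tested, 1, Slc17a7 (-2.01), stood below no odor at an unadjusted p under 0.05, and the median was -0.13. Like Gad1, Pcp4 and Camk2b were highest among acetophenone libraries in library 1 and lowest among no-odor libraries in library 2. The part of bulb tissue in the values of Pcp4 and Camk2b was not tested.

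The nasal gland gene Obp1a split the libraries in another way. Obp1a, an odorant-binding protein named here after its values were seen, was at 1.82, 1773 and 1467 CPM with acetophenone and at 214, 0.558 and 1523 CPM with no odor. It was nearly absent from acetophenone 1 and no-odor library 2. Other members of the list did not follow Obp1a. Gpx6 was at 1086, 965 and 1328 CPM with acetophenone, against 1454, 1512 and 1390.4 CPM with no odor (log2 fold change -0.37, adjusted p = 0.526). Bpifb6 was at 1157, 864 and 1364 CPM, against 1475, 1572 and 1399 CPM (-0.39, adjusted p = 0.551). Over 27 gland and secreted genes the median was 0.04. Groups were separate for 1 of them higher and 4 lower, beside 8.20% and 6.34% of all genes. The lipase gene Pnliprp1 is on this list, and the part of gland content in its values was not tested. Bone genes, to which Mmp13 belongs, had 5 of 17 below no odor at an unadjusted p under 0.05, beside 3.42% of all genes. Their median was -0.20, with 13 of 17 below 0. Skeletal muscle genes had a median of -0.71 over 6 tested members, or 0.01 without no-odor library 1, in which the actin gene Acta1 was at 15 CPM. With acetophenone 1 and no-odor library 2 both left out, Il33 was still called, at 0.48 (adjusted p = 0.0135). The part of these tissues in the receptor and low-level differences was not tested.

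**Figure D4:**
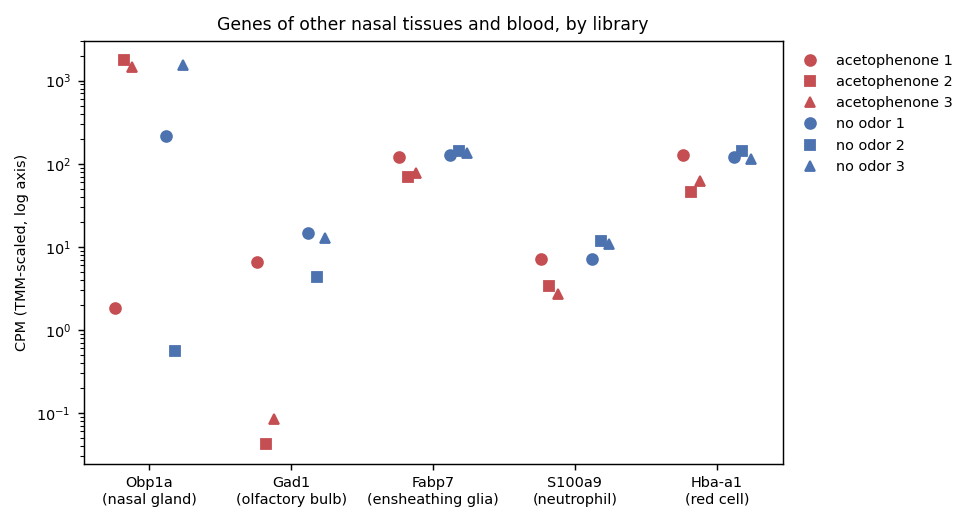
Level in CPM (vertical axis, log scale) of genes of nasal gland, olfactory bulb, ensheathing glia, neutrophils and red cells in each acetophenone (red) and no-odor (blue) library; circle, square and triangle are libraries 1, 2 and 3. For Gad1, Fabp7, S100a9 and Hba-a1, acetophenone 2 and 3 lie below all no-odor libraries; Obp1a is below 2 CPM in acetophenone 1 and no-odor library 2.

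The acetophenone libraries differed far more from the other odor groups of the batch than from no odor. Against decanal 5279 genes were called (27.0%), 2821 higher with acetophenone (14.4%) and 2458 lower (12.6%). Against the mixture 4947 were called (25.3%), 2688 higher (13.8%) and 2259 lower (11.6%). Both tests use the same 3 acetophenone libraries. Sustentacular genes were mostly higher with acetophenone, 11 of 17 against decanal and 10 of 17 against the mixture, with 2 lower in each. Sec14l3 had a log2 fold change of 0.36 over decanal (adjusted p = 1.07e-05) and 0.39 over the mixture (adjusted p = 5.22e-06), and Dab2 had 0.52 (adjusted p = 2.39e-06) and 0.48 (adjusted p = 3.76e-06). Odor transduction genes were called higher in 10 and 11 of 16, with 1 lower in each.

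Blood, bone and mitochondrial genes were lower with acetophenone than with the other odors. Of all genes, 12.6% were called lower with acetophenone than with decanal and 11.6% lower than with the mixture. Marrow genes were called lower in 15 of 16 in both tests, with medians of -3.13 over decanal and -3.69 over the mixture. Bone genes were called lower in 15 of 17 against decanal and in 17 of 17 against the mixture. Spp1 had log2 fold changes of -1.12 (adjusted p = 1.81e-06) and -1.11 (adjusted p = 1.66e-06). Transcripts encoded in mitochondrial DNA were called lower in 15 of 15 against decanal and in 14 of 15 against the mixture, with medians of -1.44 and -1.49. All 77 cytosolic ribosomal protein genes were called lower in both. Over no odor the medians were -1.32 for marrow, -0.20 for bone, 0.24 for mitochondrial DNA and 0.06 for cytosolic ribosomal proteins. Mitochondrial transcripts took 0.297% of counts with acetophenone and 0.26% with no odor, against 0.753% to 0.795% in decanal libraries. Ribosomal proteins took 0.661% and 0.655%, against 0.834% to 0.88%. Decanal and mixture were not tested against no odor here. The active-neuron list of 8 gave no gene higher and 1 lower against decanal, beside 14.4% and 12.6% of all genes. Against the mixture it gave 1 higher and 2 lower, beside 13.8% and 11.6% of all genes. Nr4a1 was higher than with decanal, at 0.49 (adjusted p = 0.0456), and at -0.30 over the mixture (adjusted p = 0.225).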

How the data were processed

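Expected counts per Ensembl gene were deposited by the authors in 1 table for the 12 libraries of the AD batch, not scaled between libraries. STAR 2.7.10b, Salmon 1.10.1, R 4.4.2 and GRCm39 are named in the submitters' processing notes; their roles and the annotation release are not given in the sources used here. Of 57010 genes, 52029 had a symbol in GENCODE M21 (GRCm38), so no gene coordinates are given; IDs without one held 0.313% of counts. The 12.8% of values that were not whole were rounded, by at most 0.5 counts. The second table, of the other batch, was not used here.

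Genes were tested with edgeR 4.0.16 in R 4.3.3 (limma 3.58.1): filterByExpr, TMM scaling and a two-sided quasi-likelihood F-test in 1 fit of 4 groups, with no block. Calls used a Benjamini-Hochberg adjusted p under 0.05 over all genes, and every p of a gene is from this test unless another is named. SE was derived from the fold change and its F statistic. CPM values use TMM-scaled library sizes. Shares of counts were compared by exact permutation. Lists were described by counts and medians, without a test. Fits that left out libraries filtered genes anew, so the members behind their medians may differ. The pipeline was tested on simulated counts. Within a group no library repeated another, since their counts differed by 8.2 to 35.9 times sampling noise (chi-square per degree of freedom). Pairs from different groups were not checked.

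Named genes were the called gene, the 12 smallest p in each direction with separate groups and at least 1 CPM, 5 receptors in each direction, up to 3 members of each list, and a set always given; members of lists named beyond these were chosen after their values were seen. The comparison, lists and rules were chosen with earlier results of these data known. Alternatives were other scaling, other filters, a replicate block, a robust fit, DESeq2 1.42.0, length and GC offsets, a fit of the 6 libraries compared and leaving out each library; leaving out acetophenone 1 with no-odor library 2 was added after the data were seen.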

Additional observations from a re-analysis of the deposited data

How the results depend on the processing

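The call of Il33 kept its direction and its side of the threshold in all alternatives but those without no-odor library 1 or 3. Instead of 1 gene, no filter on low counts called 300 genes (88 higher, 212 lower), with a median level of 6.47 CPM over the 6 libraries. Of the 300, 78 lay under 1 CPM and 24 were not among the genes tested after the filter, so most had been tested with it. DESeq2 called 30, the fit of the 6 libraries compared called 5, and leaving out acetophenone 1 with no-odor library 2 called 15. Leaving out 1 library at a time gave between 0 and 39; the 39 came without acetophenone 1, and the 0 without no-odor library 1 or 3, where 1023 and 1117 genes had an unadjusted p under 0.05. The causes were not tested. Receptors called were 5 higher and 23 lower with no filter, beside 88 and 212 of all genes. Without acetophenone 1 they were 3 lower, beside 33 of all genes. Counts against decanal lay between 3993 and 5630 and those against the mixture between 3779 and 5242. Some differences near 0 changed sign. The ribosomal protein share of acetophenone minus no odor ran from -0.00658 to 0.0176 percentage points over the fits without 1 library, against 0.00622 with all. S100a5 was at -0.01 with length and GC offsets, at -0.01 with these and the replicate block, and at -0.02 with acetophenone 1 and no-odor library 2 left out. Klf9 was at 0.00 there. Without 1 library, log2 fold changes ran from -0.02 to 0.52 for Kirrel2, -2.29 to 0.79 for Atp2a1, -0.20 to 0.00 for Klf9, -0.70 to 1.20 for Npas4, -0.07 to 0.09 for S100a5 and -0.02 to 0.04 for Omp. Of the other log2 fold changes, 2434 of the values under alternatives kept direction and side, 98 newly passed (60 with no filter) and 2 no longer passed. Deviations of acetophenone and no-odor libraries of the same replicate number had correlations of -0.0768, -0.186 and 0.158 across genes. Values from so few libraries cannot show whether the numbers pair the mice. In the fit with the replicate block 1 gene was called. With 3 libraries a group, differences of a size within the intervals given could not be told from 0, and genes under 1 CPM rest on few counts.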
